A study of Homo sapiens with 6 samples.

Results

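The zinc finger transcription factor genes described here were the protein-coding genes of the deposited table whose symbols start with ZNF, ZFP, ZSCAN, ZKSCAN, ZBTB, ZIK, ZIM or ZFHX. They were 95 of the 2462 genes in the table, and 55 of them lie on chromosome 19. RNA was sequenced from T24, a human bladder carcinoma cell line, and from its resistant strain, with 3 libraries of each. The resistant strain, T24DDP in the sample labels and T24-R in the study, was grown out of T24 by intermittent exposure to rising concentrations of gemcitabine and cisplatin, so both groups descend from T24. T24-R is 1 strain, and nothing in the labels says that its 3 libraries came from separate selections, so the p-values measure the spread between libraries, which may be technical. The table holds only genes that passed the authors' cut of an at least 2-fold difference between the lines, so a zinc finger gene outside it is here called not listed, which does not mean that it was equal in both lines.

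C2H2 zinc finger proteins bind DNA through repeated fingers, in which a pair of cysteines and a pair of histidines hold a zinc ion. Many of the human family carry a KRAB domain, which recruits the corepressor TRIM28 and heterochromatin enzymes, and many KRAB zinc finger proteins bind and silence transposable elements. Many of their genes arose by tandem duplication and stand in clusters on chromosome 19, while ZBTB proteins carry a BTB domain instead and ZFHX proteins add homeodomains. Several KRAB zinc finger genes have promoters that are known to be methylated in carcinomas.

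Of the 95 genes, 92 encoded at least 1 C2H2 finger in their reference protein, with a median of 12 fingers and a maximum of 36 in ZNF208. ZNF330, a nucleolar protein, ZNF839 and ZNF862 encoded none by this pattern, so their symbols fit the naming rule but not the finger pattern. The table's own column of transcription factor families placed 86 of them in the C2H2 family, 2 with the homeobox factors and 1 with the ZBTB factors, and gave no family for 6. The genes on chromosome 19 encoded 6 to 36 fingers with a median of 14, and those elsewhere 0 to 27 with a median of 9.5. By name, 85 were ZNF, 5 ZFP, 2 ZFHX and 1 each ZSCAN, ZKSCAN and ZBTB, and no ZIK or ZIM gene was listed.

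Values are scaled counts, the reads on a gene divided by 1 size factor per library (0.939 to 1.03 for T24, 1.00 to 1.08 for T24-R). The libraries held 1170731 to 1411926 reads on the listed genes, of which 0.515 to 0.600% fell on the 95 genes in T24 and 1.28 to 1.37% in T24-R. T24-R library 3 stood apart: the mean chi-square per gene between it and T24-R libraries 1 and 2 was 71.0 and 72.5, against 1.84 between those 2. The medians were 2.82 and 2.92 against 0.732, so a small number of genes carried much of the means. It had the highest value of the 3 in 58 of the 95 genes (61.1%), against 37.0% of all listed genes. Of 13 urothelial markers, 3 were listed: GATA3 was higher in T24-R, and PPARG and KRT19 were lower. Of 5 fibroblast markers, COL1A1 alone was listed, at 22.4 to 47.4 scaled counts in T24 and 142 to 212 in T24-R (log2 fold change 2.49, or 1.16 with TMM factors), and of 4 blood markers none was. The part of such markers in the zinc finger results was not tested. Of 10 retinal markers, looked up because the protocol label names retinas, none was listed.

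The largest differences came from some of the genes that were silent in T24 and transcribed in T24-R. Others had small bounds, such as at least 5.03-fold for ZNF382. Such a bound does not rank them against genes above the floor in T24, such as ZNF208 at 16.7-fold. The promoters of 4 silent genes are shown here because promoter sequence is where methylation of this family is usually measured. Each line is the 250 bases before the start site, 5′ to 3′ on the gene's strand, from RefSeq on GRCh38.p14, with each CG dinucleotide in capitals. ZNF382 (chr19:36605063-36605312, plus strand) and ZNF470 (chr19:56567218-56567467, plus strand) are chromosome 19 genes in separate clusters. ZNF716 (chr7:57449927-57450176, plus strand) and ZNF467 (chr7:149773589-149773838, minus strand) lie on chromosome 7. The deposited table starts ZNF382 at 36604817, 496 bases before the RefSeq start site, so by that start the ZNF382 window lies inside the gene. The window also covers a start site of ZNF529 at 36605257.
ZNF382: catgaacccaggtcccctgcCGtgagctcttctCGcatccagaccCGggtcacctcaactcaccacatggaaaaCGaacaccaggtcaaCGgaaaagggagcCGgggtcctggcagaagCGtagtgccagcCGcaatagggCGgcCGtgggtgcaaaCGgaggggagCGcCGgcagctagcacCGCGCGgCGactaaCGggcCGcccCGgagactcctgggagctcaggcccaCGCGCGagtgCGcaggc
ZNF470: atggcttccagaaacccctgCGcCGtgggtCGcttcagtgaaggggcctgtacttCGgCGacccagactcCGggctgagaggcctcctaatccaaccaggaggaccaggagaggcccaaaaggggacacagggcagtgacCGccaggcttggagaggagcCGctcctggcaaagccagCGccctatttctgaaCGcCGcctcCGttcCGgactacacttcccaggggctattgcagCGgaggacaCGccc
ZNF716: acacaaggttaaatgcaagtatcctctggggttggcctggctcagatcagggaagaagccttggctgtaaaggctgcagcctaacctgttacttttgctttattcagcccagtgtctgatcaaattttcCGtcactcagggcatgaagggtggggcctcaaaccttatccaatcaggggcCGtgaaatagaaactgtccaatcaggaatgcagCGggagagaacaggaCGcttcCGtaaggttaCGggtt
ZNF467: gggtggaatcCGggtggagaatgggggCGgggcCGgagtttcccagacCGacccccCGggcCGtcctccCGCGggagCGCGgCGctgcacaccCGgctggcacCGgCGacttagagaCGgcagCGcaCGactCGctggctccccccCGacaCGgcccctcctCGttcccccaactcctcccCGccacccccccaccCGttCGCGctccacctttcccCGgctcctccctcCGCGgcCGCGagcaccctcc
The ZNF467 window held 30 CG dinucleotides, a number reached by 12.4% of the 35116 RefSeq promoters of the same length. The ZNF382 window held 24 (23.7% of promoters hold as many), the ZNF470 window 15 (42.9%) and the ZNF716 window 6 (61.9%). CG reads the same on both strands, and 93.9% of all promoters held at least 1. Of the 13 genes at the floor in T24, 10 matched a promoter entry and held a median of 12.5 CG, against 15 in 73 other zinc finger genes and 11 over all promoters. These silent genes therefore spanned CG-poor and CG-rich windows. Methylation was not measured in these libraries.

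Most of the zinc finger genes were higher in T24-R. By limma, 86 of the 95 were called higher (adjusted p under 0.05 and a log2 fold change above 1), 6 were called lower and 3 were not called (ZNF569, ZNF391 and ZNF546, at log2 fold changes of 0.96, 0.98 and 0.99). edgeR and DESeq2 on the recovered reads called all 95, and their shares over all listed genes are not given here. By limma 98.3% of all listed genes were called, 69.2% higher and 29.2% lower. Since the authors selected the table by the same contrast, the calls are a description and not independent evidence. The libraries of the lines did not overlap in any of the 95 genes, as in 99.1% of the table. The median log2 fold change was 1.43, with a range from -2.41 to 7.88, against 1.41 over all listed genes. Thus 90.5% of the zinc finger genes were called higher, a difference from the table that was not tested, while their median was near that of the table. Their summed scaled count was 6845 to 7378 in T24 against 14923, 15481 and 18897 in T24-R libraries 1 to 3, 2.32-fold higher on the means and 2.14-fold without library 3. Without that library 75 genes were called, 70 higher and 5 lower. The share of all listed genes called without it is not given here. Whether the drop is particular to zinc finger genes was not tested. A total of 53 of the 95 were higher, and 21 called higher, when the libraries were rescaled with TMM factors of the listed genes, a scaling that lowered the median of the whole table by 1.32. These are 55.8% and 22.1% of the zinc finger genes, beside 53.2% and 23.7% of all listed genes, so under TMM factors their share of higher genes was near that of the table. Fewer cells of a type and less RNA per cell cannot be told apart in such bulk libraries.

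**Figure D1:**
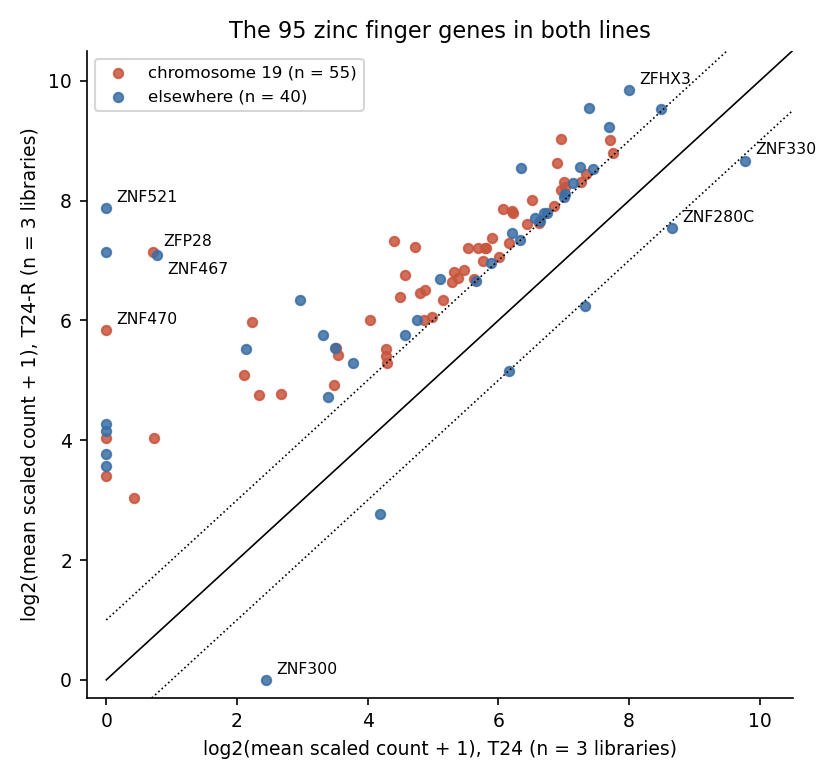
Mean level of each of the 95 zinc finger genes in T24 (x axis) and T24-R (y axis), as log2(mean scaled count + 1) over 3 libraries each, with the 55 chromosome 19 genes in red and the 40 others in blue. The solid line marks equal levels and the dotted lines a 2-fold difference. On the scale as deposited 89 genes lie above the solid line (53 with TMM factors) and 13 lie at the left edge, at the floor in T24.

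The scaled count was at the floor of detection, 3 reads or fewer in every library of the line, in T24 for 13 zinc finger genes (13.7%) and in T24-R for 1. Over the table the shares were 13.2% and 3.09%, so the share silent in T24 was near that of all listed genes. By chromosome, 6 of the 13 were on chromosome 19, 5 on chromosome 7 and 1 each on chromosomes 5 and 18. All 13 together summed to 2.04 to 2.90 scaled counts in T24, against 736, 757 and 939 in T24-R. As folds against a floor of 3 reads per library, they were at least 2.35-fold to at least 76.7-fold higher in T24-R. Fitted log2 fold changes of these genes depend on the pseudocount and are no bounds.

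ZNF521 encodes a cofactor of many fingers (27 here) that is known to act in blood and mesenchymal progenitors, and it gave the largest difference of the 95. On the minus strand of chromosome 18, 25061926 to 25352190 (GRCh38), its scaled counts were 0 in all T24 libraries, against 228, 221 and 255 in T24-R. No read fell on it in T24, and its T24-R libraries lay close together. It exceeded T24 by at least 76.7-fold (log2 fold change 7.88 ± 0.25, SE, adjusted p = 9.09e-08). Its T24-R mean was 37.6 scaled counts per kb of gene length.

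ZNF467 encodes a C2H2 protein without a KRAB domain that is known to favour fat over bone differentiation in mesenchymal progenitors. ZNF467 stood at scaled counts of 2.13, 0 and 0 in the T24 libraries, against 117, 144 and 145 in the T24-R libraries. The single T24 library above 0 held 2 reads. The gene exceeded T24 by at least 44.3-fold (log2 fold change 6.53 ± 0.46, SE, adjusted p = 4.23e-06), and its CG-rich promoter is printed above.

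In a stretch of chromosome 19 every listed gene was silent in T24. From 56397966 to 56588911 (190.9 kb) the annotation holds 5 zinc finger genes, ZNF583, ZNF667, ZNF471, ZFP28 and ZNF470. All but ZNF667, which was not listed, were listed and at the floor in T24, and no other gene of the stretch was listed. ZFP28 had scaled counts of 0, 0 and 1.94 in the T24 libraries and 133, 115 and 170.4 in those of T24-R. It exceeded T24 by at least 45.7-fold (log2 fold change 6.60 ± 0.45, SE, adjusted p = 3.85e-06).
For ZNF470 the scaled counts were 0 in every T24 library, against 56.9, 57.3 and 54.8 in the resistant strain. The 3 T24-R libraries of ZNF470 agreed within 3 scaled counts, and the gene was at least 18.4-fold higher there (log2 fold change 5.84 ± 0.27, SE, adjusted p = 5.89e-07). ZNF471 stood at scaled counts of 0 in every T24 library, against 14.97, 15.7 and 15.7 in the T24-R libraries. It was at least 5.06-fold higher (log2 fold change 4.04 ± 0.27, SE, adjusted p = 3.62e-06). ZNF583 had scaled counts of 0 in every T24 library and 8.98, 11.1 and 8.81 in those of T24-R. The bound for ZNF583 was 3.15-fold. All 4 encode KRAB proteins, and their mean levels per length in T24-R ran from 1.19 scaled counts per kb in ZNF583 to 20.01 in ZFP28.

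Chromosome 7 held 4 more genes of this kind near its centromere, all KRAB zinc finger genes. ZNF479 and ZNF716 are the only zinc finger genes annotated between 57119614 and 57473546 (353.9 kb), and both were at the floor in T24. For ZNF716 the scaled counts were 0 in every T24 library, against 119.8, 111 and 188 in the resistant strain. No read fell on ZNF716 in T24, and it exceeded T24 by at least 45.7-fold (log2 fold change 7.09 ± 0.31, SE, adjusted p = 4.48e-07). ZNF479 had 7.98 to 13.9 scaled counts in T24-R, at least 3.56-fold above the floor, and per length its T24-R level was 5.24 scaled counts per kb against 26.8 for ZNF716.
Between 64045443 and 64266931 (221.5 kb) ZNF727 and ZNF679 were at 0 in all T24 libraries, while ZNF735 between them was not listed. In T24-R, ZNF679 had 17.96, 10.2 and 26.4 scaled counts in libraries 1 to 3 and ZNF727 had 3.99, 20.3 and 13.7. The lowest ZNF727 value was 4 reads, just above the floor. Of the 39 zinc finger genes annotated on chromosome 7, 9 were listed, all higher in T24-R under both scalings. Of all listed genes 70.7% were higher on the deposited scale and 53.2% with TMM factors. Other listed genes of chromosome 7 were not set beside them. The median log2 fold change of the 9 was 3.54, the fitted value of ZNF727. It depends on the pseudocount, since 5 of the 9 were at the floor in T24.

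The other genes at the floor in T24 had few reads in T24-R as well. In all, 8 of the 13 had a T24-R mean between 7.16 and 18.2 scaled counts. ZNF879 on chromosome 5 had no read in T24 and 11.97, 15.7 and 22.5 scaled counts in T24-R, at least 5.48-fold higher. ZNF382 stood at scaled counts of 0, 1.02 and 0.968 in the T24 libraries, against 10.98, 19.4 and 15.7 in the T24-R libraries. It was at least 5.03-fold higher (log2 fold change 3.33 ± 0.39, SE, adjusted p = 5.41e-05).
ZNF382 is a KRAB repressor whose promoter is known to be methylated in carcinomas, and its RefSeq start site lies 56 bases from a start site of ZNF529, which reads the other way. ZNF529 had scaled counts of 116, 136 and 129.7 in the T24 libraries and 322, 339 and 291 in those of T24-R. The neighbour was thus transcribed in T24 while ZNF382 was at the floor there, although RefSeq gives ZNF529 a second start site 32021 bases from that of ZNF382. ZNF418 had the smallest bound of the 13, with 0, 1.02 and 0 scaled counts in T24 against 5.99, 2.77 and 12.7 in T24-R, at least 2.35-fold higher. One of its T24-R libraries was itself at 3 reads. ZNF300 on chromosome 5 was the reverse case, with 5.32, 5.11 and 2.90 scaled counts in T24 and no read in T24-R, at least 1.53-fold lower.

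**Figure D2:**
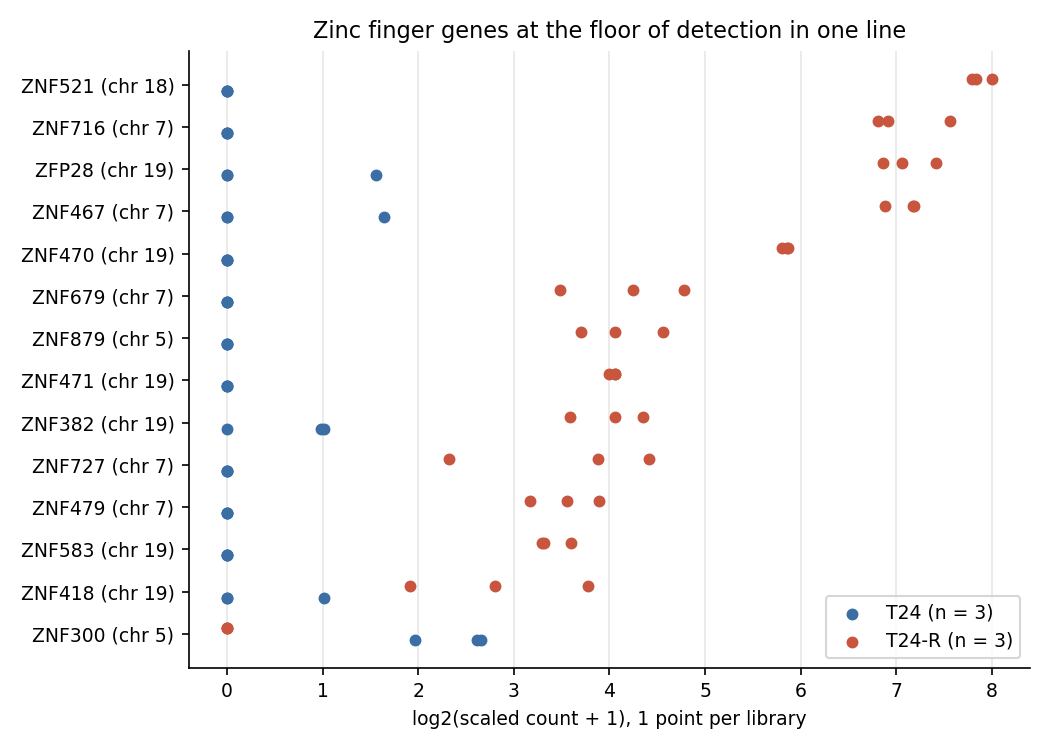
Level of the 14 zinc finger genes at the floor in 1 line, as log2(scaled count + 1) on the x axis, with 1 point per library (T24 in blue, T24-R in red, n = 3 each) and the chromosome in brackets. The 5 uppermost genes lie above 5 on this scale in every T24-R library, the other 8 T24-silent genes lie below 5, and ZNF300 is at 0 in T24-R.

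Chromosome 19 carried most of the listed zinc finger genes. GENCODE annotates 618 protein-coding genes with these name starts, of which 15.4% were listed: 55 of 267 on chromosome 19 (20.6%) and 40 of 351 elsewhere (11.4%). Chromosomes 18 (4 of 12), 14 (2 of 8) and 7 (9 of 39) had higher shares than chromosome 19, on fewer genes. Of all listed genes 70.7% were higher in T24-R on the deposited scale and 69.2% were called higher. All 55 chromosome 19 zinc finger genes were higher, 53 of them called, whereas with TMM factors 34 were higher and 11 called. Elsewhere 34 were higher and 6 lower, with 33 and 6 called, and with TMM factors 19 were higher, 10 of them called. With TMM factors 20% of the chromosome 19 genes were thus called higher, and 25% of those elsewhere, beside 23.7% of all listed genes. The 6 called lower were the same with TMM factors, and none is on chromosome 19. Of all listed genes 29.3% were called lower with these factors. Since TMM factors lowered the log2 fold changes, keeping these calls is no further support. The median log2 fold change was 1.49 on chromosome 19 and 1.29 elsewhere. The difference of these medians was 0.10, 0.14 and 0.31 for T24-R libraries 1 to 3 against the T24 mean (SD 0.108, n = 3). Over all libraries it was 0.20, and it moved by over 1.5 times without T24 library 3 (0.31), T24-R library 1 (0.30) or T24-R library 2 (0.33), so its size depended on several libraries. The genes of a chromosome are not replicates, and no p-value was computed for this difference. The same direction was seen in other genes of the chromosome. Of 137 listed chromosome 19 genes that are not zinc finger genes by the naming rule, 126 were higher (92.0%), with a median of 1.91. With TMM factors 102 were higher (74.5%), beside 61.8% of the chromosome 19 zinc finger genes and 53.2% of all listed genes. The share called higher with TMM factors was 38.0%, beside 20% of the chromosome 19 zinc finger genes. The direction was thus not particular to zinc finger genes.

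The summed scaled count of the 55 genes was 2865 to 3138 in T24 against 7489 to 9508 in T24-R, 2.78-fold higher on the means, or 2.57-fold without library 3. That of the 40 genes elsewhere was 3980 to 4240 in T24 against 7433 to 9389 in T24-R, 1.99-fold higher, or 1.84-fold without it. Library 3 gave the upper end of both T24-R ranges.

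**Figure D3:**
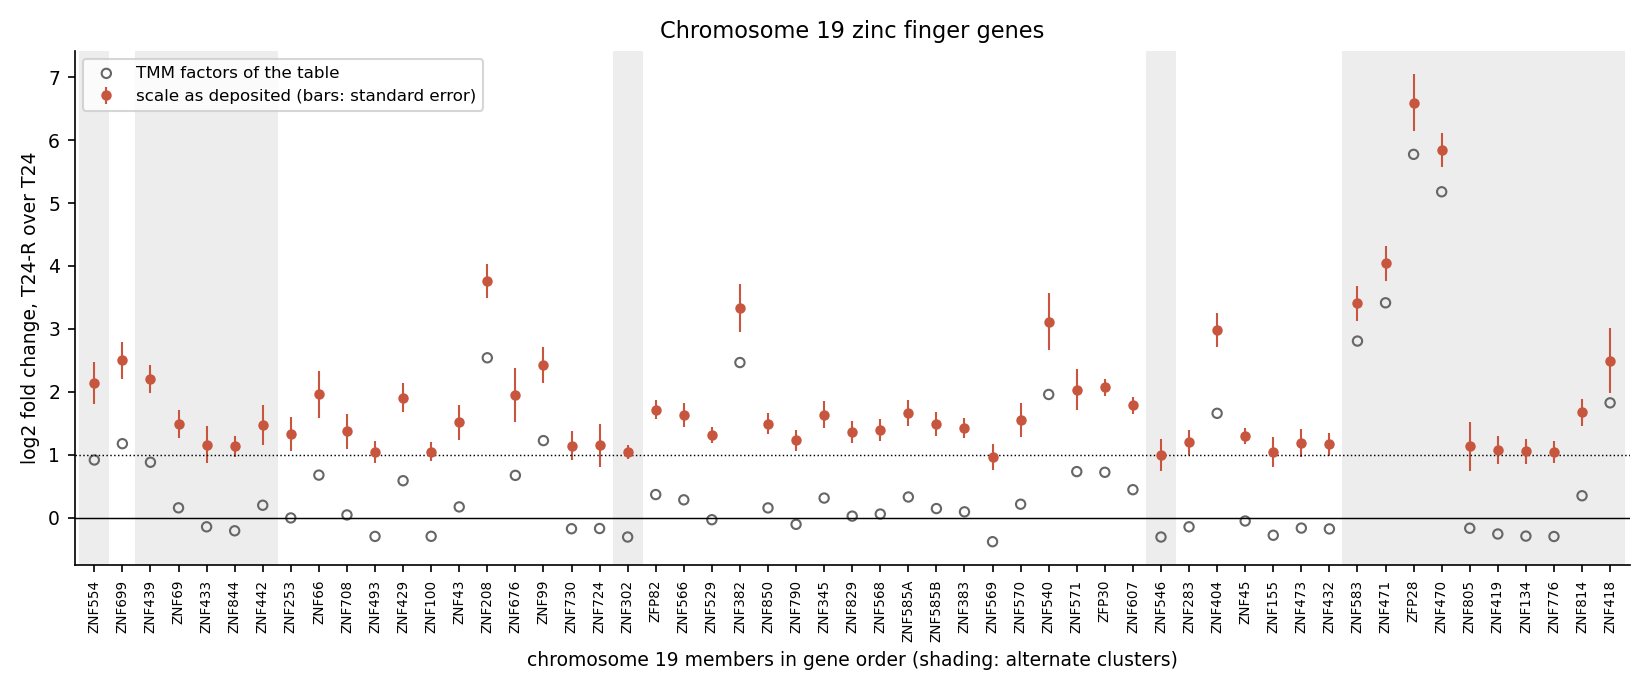
Log2 fold change (T24-R over T24) for the 55 chromosome 19 zinc finger genes in gene order, with alternate clusters shaded. Filled points with standard error bars are on the scale as deposited and open points use TMM factors, 3 libraries per line, and the dotted line marks a log2 fold change of 1. All 55 filled points lie above 0, 34 of the open ones do, and the 4 listed genes from ZNF583 to ZNF470 include the 3 highest points.

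Clusters were taken as runs of at least 3 annotated zinc finger genes with starts at most 500 kb apart, and chromosome 19 held 10, numbered along the chromosome. All listed genes of the chromosome but ZNF473 lay in them. The clusters differed in the share listed. In cluster 6 (35704558 to 37817300) 18 of 30 genes were listed, against 12 of 37 in cluster 4 (19668796 to 24129968), 10 of 71 in cluster 10 (55476617 to 58538911) and 1 of 40 in cluster 9 (51571283 to 53580269). Cluster 3 had 5 of 26, cluster 8 had 4 of 23, cluster 2 had 1 of 14, and clusters 1, 5 and 7 had 1 each of 5, 5 and 3.

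In cluster 6 the 18 genes had a median log2 fold change of 1.59, and 17 were called higher, while with TMM factors 15 were higher and the median was 0.25. Their summed scaled count was 1038, 1132 and 1148 in T24 against 3132, 3287 and 3582 in T24-R. Of all listed genes 69.2% were called higher, with a median of 1.41, and 53.2% were higher with TMM factors. For listed chromosome 19 genes that are not zinc finger genes these values were 89.1%, 1.91 and 74.5%. The highest mean scaled count of the cluster, not divided by length, belonged to ZFP30, a KRAB zinc finger gene. For ZFP30 the scaled counts were 129.9, 107 and 134 in the T24 libraries, against 509.9, 526 and 520.0 in the resistant strain. The T24-R libraries were 4.20-fold above T24 and spread little (log2 fold change 2.07 ± 0.13, SE, adjusted p = 2.53e-06), while with TMM factors the log2 fold change was 0.72 and not called. ZFP30 stands in a row of 4 adjacent genes that were all listed, ZNF540, ZNF571, ZFP30 and ZNF607 (37551406 to 37719761), with log2 fold changes of 1.79 to 3.11.
Other rows without a gap in the same cluster were ZNF850, ZNF790, ZNF345, ZNF829 and ZNF568 (1.23 to 1.64) and ZNF585A, ZNF585B and ZNF383 (1.43 to 1.66). The 5 genes of the former row thus differed by less than 0.5 on the log2 scale. ZFP82 stood at scaled counts of 121, 119.5 and 115 in the T24 libraries, against 348, 361 and 476 in the T24-R libraries. ZFP82 was 3.33-fold higher on the deposited scale (log2 fold change 1.71 ± 0.15, SE, adjusted p = 1.28e-05), and with TMM factors it was not called (0.36). ZNF569 in this cluster missed the call at a log2 fold change of 0.96 and was -0.38 with TMM factors.

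In cluster 4 the 12 listed genes had a median of 1.44, and 7 were higher with TMM factors. ZNF208, whose protein has the most fingers of the 95, differed most. ZNF208 had scaled counts of 3.19, 3.06 and 4.84 in the T24 libraries and 56.9, 64.7 and 63.7 in those of T24-R. All 3 T24 libraries held 3 to 5 reads, and the T24-R mean was 16.7-fold higher (log2 fold change 3.76 ± 0.27, SE, adjusted p = 4.77e-06). Since 29.9% of its 50-base stretches also occur in other genes, some of its reads may belong to relatives. ZNF493, ZNF429, ZNF100, ZNF43 and ZNF208 formed an unbroken row of listed genes from 21397119 to 22010949. For ZNF100 the scaled counts were 138, 149 and 169 in the T24 libraries, against 276, 319 and 355 in the resistant strain. It had the highest mean scaled count of the cluster, with a log2 fold change of 1.05 on the deposited scale and -0.30 with TMM factors.

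In cluster 8, ZNF283, ZNF404 and ZNF45 stood side by side, from 43827321 to 43935282. ZNF404 stood at scaled counts of 29.8, 15.3 and 15.5 in the T24 libraries, against 155, 167 and 154 in the T24-R libraries. It was 7.85-fold higher in T24-R (log2 fold change 2.98 ± 0.27, SE, adjusted p = 1.46e-05). ZNF45 had scaled counts of 201, 209 and 217 in the T24 libraries and 451, 529 and 569.9 in those of T24-R. ZNF45 ranked among the 5 highest zinc finger genes per length, at 82.6 scaled counts per kb over all libraries, and was 2.47-fold higher on the deposited scale (log2 fold change 1.29 ± 0.13, SE, adjusted p = 2.1e-05), while its log2 fold change with TMM factors was -0.06. ZNF283, the remaining neighbour, had a log2 fold change of 1.20, or -0.15 with TMM factors.

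The leading genes of the clusters with 1 listed gene were ZNF554 in cluster 1, ZNF699 in cluster 2, ZNF302 in cluster 5, ZNF546 in cluster 7 and ZNF432 in cluster 9. For ZNF699 the scaled counts were 17.03, 27.6 and 31.9 in the T24 libraries, against 119, 127 and 199 in the resistant strain. It was 5.81-fold higher (log2 fold change 2.50 ± 0.29, SE, adjusted p = 5.58e-05), and library 3 was well above the other T24-R libraries. ZNF554 had 3.19 to 7.15 scaled counts in T24 against 21.95 to 30.4 in T24-R, with a log2 fold change of 2.14 ± 0.34, or 0.91 and not called with TMM factors. ZNF302 stood at scaled counts of 222, 222 and 201 in the T24 libraries, against 425, 439.6 and 465 in the T24-R libraries. Its log2 fold change was 1.04 ± 0.11, or -0.31 with TMM factors. ZNF546 was not called (0.99), and was at -0.31 with TMM factors.
ZNF432 (1.16) and the gene with the highest scaled count in cluster 3, ZNF844 (1.13), were at -0.18 and -0.21 with TMM factors. In cluster 10 the highest scaled count was that of ZNF134. ZNF134 had scaled counts of 159.7, 167 and 159 in the T24 libraries and 288, 281 and 470.0 in those of T24-R. Its log2 fold change of 1.05 fell to 0.81 without library 3 and to -0.30 with TMM factors. ZNF473, outside the clusters, encodes a protein of histone pre-mRNA processing, and was named after its values were seen as the only listed gene of chromosome 19 outside a cluster. For ZNF473 the scaled counts were 112, 127 and 129.7 in the T24 libraries, against 226, 237 and 403 in the resistant strain.

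Outside chromosome 19, 2 of the 3 homeodomain zinc finger genes (ZFHX) were listed, both called higher on the deposited scale and 1 of them, ZFHX2, also with TMM factors. ZFHX2 stood at scaled counts of 7.45, 6.13 and 6.77 in the T24 libraries, against 55.9, 81.3 and 103 in the T24-R libraries. ZFHX2, on chromosome 14, was 11.8-fold higher (log2 fold change 3.34 ± 0.29, SE, adjusted p = 1.15e-05). ZFHX3, a tumour suppressor in prostate cancer, lies on chromosome 16. ZFHX3 had scaled counts of 201, 237 and 328 in the T24 libraries and 714, 739 and 1299 in those of T24-R. The lowest T24-R library was more than 2-fold above the highest T24 library, and T24-R library 3 was the highest by far. The log2 fold change was 1.81 ± 0.26 (adjusted p = 0.000174), 1.53 without library 3 and 0.46, no longer called, with TMM factors.

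For ZFP90 the scaled counts were 156, 158 and 182 in the T24 libraries, against 657, 673 and 911 in the resistant strain. This KRAB gene of chromosome 16 was 4.51-fold higher in T24-R (log2 fold change 2.15 ± 0.15, SE, adjusted p = 4.43e-06), and at 0.80, not called, with TMM factors. ZFPM1, which encodes the GATA factor cofactor FOG1, was 2.09-fold higher on the deposited scale (log2 fold change 1.07 ± 0.15, SE, adjusted p = 0.000189) and at -0.28 with TMM factors. ZFPM1 stood at scaled counts of 134, 141 and 105 in the T24 libraries, against 282, 273 and 241 in the T24-R libraries. Another gene, named after its values were seen because its KRAB domain is the one commonly fused to Cas9 for gene silencing, was ZNF10 on chromosome 12. ZNF10 had scaled counts of 70.3, 62.3 and 86.1 in the T24 libraries and 172, 184 and 170.4 in those of T24-R. Its log2 fold change was 1.27 on the deposited scale and -0.08 with TMM factors.

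The 6 genes that were lower in T24-R were ZNF330, ZNF280C, ZNF75A, ZNF674, ZNF660 and ZNF300. They stayed called lower with TMM factors, but that scaling lowered the median of the whole table by 1.32, so this is no further support. Of all listed genes 721 were negative on the deposited scale, and 721 were called lower with TMM factors. Both listed zinc finger genes of chromosome X, ZNF280C and ZNF674, were among the 6. For ZNF330 the scaled counts were 923, 891 and 799 in the T24 libraries, against 427, 425 and 365 in the resistant strain. ZNF330, the nucleolar protein without a C2H2 finger, was the most highly expressed of the 95 per length, at 343 scaled counts per kb in T24 and 160.0 in T24-R. It was 2.15-fold lower in T24-R (log2 fold change -1.10 ± 0.12, SE, adjusted p = 3.35e-05). ZNF280C stood at scaled counts of 370.4, 389 and 447 in the T24 libraries, against 163, 212 and 183 in the T24-R libraries. ZNF280C, which encodes a chromatin protein with C2H2 fingers, was 2.17-fold lower (log2 fold change -1.11 ± 0.14, SE, adjusted p = 9.32e-05).
ZNF75A had scaled counts of 158, 156 and 166 in the T24 libraries and 84.8, 64.7 and 75.4 in those of T24-R. ZNF75A on chromosome 16 was 2.14-fold lower (log2 fold change -1.09 ± 0.16, SE, adjusted p = 0.000182). For ZNF674 the scaled counts were 57.5, 77.6 and 76.5 in the T24 libraries, against 36.9, 38.8 and 28.4 in the resistant strain. ZNF674 lay at the threshold, with a log2 fold change of -1.002 ± 0.22, and -0.87 without T24-R library 3. ZNF660 on chromosome 3, named because so few genes were lower, had 15.97, 18.4 and 17.4 scaled counts in T24 against 4.99, 3.70 and 8.81 in T24-R, with a log2 fold change of -1.49 ± 0.34. No T24-R library reached the lowest T24 library in any of these genes.

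Lists of zinc finger genes by role, chosen with earlier results of these data known, were set beside the table. Of 18 genes whose promoters are known to be methylated in carcinomas, 7 were listed, and 6 were called higher (ZFP82, ZNF382, ZNF418, ZNF471, ZNF529 and ZNF568). The seventh was ZNF569. Of all 95 zinc finger genes 90.5% were called higher, and of all listed genes 69.2%, so 6 of 7 does not stand out from the family. The median of the 7 was 1.71, and with TMM factors 5 were higher. ZNF568 stood at scaled counts of 57.5, 53.1 and 54.2 in the T24 libraries, against 128, 140.4 and 173 in the T24-R libraries. With TMM factors the log2 fold change of ZNF568 was 0.06 and that of ZNF529 -0.03.
Of 10 zinc finger genes known to bind and repress retroelements, ZNF382 was the only 1 listed. Of 9 genes linked to imprinting, ZFP90 was listed, and of 9 with roles in differentiation and cancer, ZNF521 and ZFPM1 were. None of 6 early embryo genes, 15 BTB zinc finger genes of known role and 3 CCCH RNA-binding proteins was listed. The only listed ZBTB gene was ZBTB8B, which is not on that list, with 5.32, 1.02 and 3.87 scaled counts in T24 against 46.9, 38.8 and 48.96 in T24-R.

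Few genes for proteins through which this family acts were listed. The share of all annotated genes that was listed is not given here, so these low counts are no result about the partners. Of 20 genes for KRAB corepressor and heterochromatin partners only ATF7IP2 was listed, at 8.52, 19.4 and 12.6 scaled counts in T24 and at 0 in all T24-R libraries. ATF7IP2 is a relative of ATF7IP, which keeps the H3K9 methyltransferase SETDB1 in the nucleus. Of 16 BTB and repressor complex partners only HDAC4, a class II histone deacetylase, was listed, at 34.1, 59.2 and 43.6 in T24 against 404, 394 and 329 in T24-R. Of 110 C2H2 factors with other names, 18 were listed, 14 called higher and 4 lower with a median of 1.65, and with TMM factors 10 were higher. Those called are 77.8% and 22.2%, beside 69.2% and 29.2% of all listed genes. With TMM factors 55.6% were higher, beside 53.2% of all listed genes.

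Reads of near-identical genes limit some of these values. In 14 of the 95 genes more than 20% of the 50-base stretches occur in another gene or more than 20% of the exons overlap one, ZNF208, ZNF529, ZNF844 and ZNF479 among those named above. Of the other 81, 75 were higher with a median of 1.43 on the deposited scale. The authors' sources used here do not say whether counting used the strand, so reads of overlapping antisense genes cannot be told apart.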

How the data were processed

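RNA-seq of 3 T24 and 3 T24-R libraries was analysed. According to the study's methods, the authors trimmed reads with fastp, aligned them to GRCh38 with HISAT2, counted them with featureCounts and tested them with DESeq2. The labels instead name retinas and build mm9, and the table's identifiers and coordinates are human. The signal values the authors deposited are counts of reads that were each divided by the size factor of the library, and reads were recovered, as 100% of values lay within 0.001 of a whole multiple of the library's smallest step. The authors' own means, fold changes and p-values were not used.

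limma 3.58.1 (eBayes with trend, R 4.3.3) was fitted to log2(value + 1) over all 2462 genes, with Benjamini-Hochberg adjustment. Fold changes on this scale understate the change of low genes. An exact permutation test of 3 against 3 libraries cannot go below a two-sided p of 0.1. On simulated data in which 200 of 2462 genes were changed, limma recovered 200 of the 200 with 3 false calls. The sizes and spread used there are not given here. Recovery at log2 fold changes between 1 and 2, where 58 of the 95 zinc finger genes lay, was not tested separately. A table in which 98.3% of genes were called, as here, was not tested in this way. Alternatives were TMM factors, edgeR 4.0.16, DESeq2 1.42.0, pseudocounts of 0.1 and 10, a mean of at least 10, no trend, a replicate block, each library left out, clusters only and floors of 1 and 10 reads. Floors cover counting error only, since reads carry no molecular identifiers.

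Genes were named with values if they were among the 8 highest or the 8 lowest called log2 fold changes (a mean of at least 50 in 1 line, no overlap), were at the floor in 1 line with a mean of at least 20 in the other, stood on a list of zinc finger genes by role, led a chromosome 19 cluster in level, or were among the 5 highest per kb. This gave 32, and other genes at the floor and lower genes were named to account for them after their values were seen. Members, lists and tests were chosen with earlier results of these data known. Annotation was GENCODE 44 and all 95 genes were found in it. Fingers were counted in the canonical proteins as a cysteine, 2 to 4 residues, a cysteine, 12 residues, a histidine, 3 to 5 residues and a histidine. RefSeq promoters matched 83 genes.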

Additional observations from a re-analysis of the deposited data

How the results depend on the processing

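With TMM factors 27 zinc finger genes were called, 21 of them higher, 34 of those on chromosome 19 and 19 of those elsewhere had a positive log2 fold change, and 10 of the 32 named genes turned negative: ZFPM1 (-0.28), ZNF844 (-0.21), ZNF100 (-0.30), ZNF302 (-0.31), ZNF529 (-0.035), ZNF569 (-0.38), ZNF546 (-0.31), ZNF45 (-0.055), ZNF432 (-0.18) and ZNF134 (-0.30). Another 6 stayed positive but lost the call: ZFP90 (0.80), ZFHX3 (0.46), ZNF554 (0.91), ZFP82 (0.36), ZNF568 (0.06) and ZFP30 (0.72). Of all listed genes 53.2% were positive and 23.7% called higher with these factors. By construction these factors centre the listed genes, which were selected for a difference. With a pseudocount of 10, 3 genes were called lower, the low genes being compressed. edgeR and DESeq2 on the recovered reads each called 95, 89 higher and 6 lower. Leaving out 1 library, 75 to 92 genes were called, 70 to 87 higher and 5 or 6 lower, lowest without T24-R replicate 3, where 17 calls were lost. For edgeR, DESeq2 and the left-out libraries the shares over all listed genes are not given here. The difference between chromosome 19 and the other genes, 0.20 in all libraries, ranged from 0.15 without T24-R replicate 3 to 0.33 without T24-R replicate 2, and was 0.31 without T24 replicate 3. A floor of 10 reads gave 20 genes in T24 and 2 in T24-R. Deviations of libraries with the same replicate number correlated weakly (0.124, 0.0244 and 0.181). Those of libraries with different numbers correlated at -0.158 to 0.109, so a pairing was neither shown nor excluded. With a replicate block the calls were 92, 86 higher and 6 lower, and all 32 named genes kept direction and side of the threshold. The differences of all 13 T24-silent genes are bounds only, and depth most limits the 8 with a T24-R mean under 20 scaled counts.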
